A study of Homo sapiens and Mus musculus with 12 samples.

Results

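The genes of 2 death ligands, Fas ligand and TRAIL, and of the receptors that bind them were followed in NK cells that lacked the histone methyltransferase EHMT2 or were treated with an inhibitor of it. The members are the rows of the count tables with the symbols Fasl, Fas, Tnfsf10 and Tnfrsf10b in mouse and FASLG, FAS, TNFSF10, TNFRSF10A and TNFRSF10B in human. Each symbol was listed once, which made 9 of 40325 listed genes, 4 of 22021 in mouse and 5 of 18304 in human. All 9 passed the filter on low counts.

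Fas ligand and TRAIL are membrane proteins of the TNF family that NK cells use, beside perforin and granzymes, to kill target cells. Binding of the ligand gathers its receptor into a complex with the adaptor FADD, on which caspase-8 becomes active and starts apoptosis. NK cells can carry the receptors as well, and Fas on activated lymphocytes limits their own survival.

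RNA-seq had been performed on CD3−NK1.1+ NK cells sorted from the spleens of C57BL/6J mice that were 8 to 12 weeks old, and on NK92MI, a human NK line engineered to supply itself with IL-2. WT mice were Ehmt2 flox/flox, and KO mice were Ehmt2 flox/flox and carried Ncr1-iCre, so that both groups shared the floxed allele and only KO mice expressed Cre, from the gene of NKp46. NK92MI cells were treated with BIX-01294, an inhibitor of EHMT2 (BIX), or with its solvent (DMSO). A supplement of the study gives 0.25 μM for 5 days for the treatment of this line, without naming the RNA-seq. Each group had 3 libraries. Ncr1 is also active in ILC1, the control mice carried no Cre, and NK92MI is 1 cell line, so that its libraries are not separate donors. No label says whether the replicates came from separate animals or cultures, and p-values then measure the spread between these libraries, which may be technical.

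Library totals lay between 25891680 (WT replicate 2) and 37438868 counts in mouse and between 16579469 and 17165446 in human. Ehmt2 ranged from 136.9 to 170.7 CPM over the KO libraries and from 274.7 to 285.5 CPM over the WT libraries (log2 fold change −0.91, SE 0.10, adjusted p = 0.0162 by edgeR). The genotype label of the KO libraries reads Ezh2-KO although their titles name EHMT2, and Ezh2 had a log2 fold change of −0.23 (SE 0.09, adjusted p = 0.116 by edgeR). Of the mouse marker lists, all 12 pan-NK genes had higher means in KO (summed level 8315 to 10439 CPM against 4567 to 7887 CPM), and every B cell (8), macrophage and monocyte (10), neutrophil (7 tested) and erythroid (8) marker had a lower one. Of the other lists, 6 of 8 T cell, 5 of 6 dendritic cell and 5 of 9 ILC1 markers had lower means in KO. In NK92MI cells the summed pan-NK list lay between 7866 and 9963 CPM with BIX and between 6082 and 6592 CPM with DMSO, while the listed markers of other cells were few, with the B cell list at or below 26.3 CPM the macrophage list at or below 5.11 CPM and the neutrophil, dendritic and erythroid lists at or below 1.12 CPM. KLRK1, which encodes NKG2D, was low in NK92MI (mean 3.38 CPM with BIX and 3.28 CPM with DMSO), and CD3E was present (552 and 493 CPM).

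The promoters of 3 human members, FASLG, FAS and TNFSF10, are shown first. Only these 3 of the 5 human members were matched to a promoter in the source used. Their levels also differed most between BIX and DMSO. The promoters were taken from RefSeq (GRCh38.p14) as 250 bases before to 50 bases after the start site. All are written 5′ to 3′ on the strand of the gene. Capitals mark matches on either strand to 5 short motifs, the NFAT core GGAAA, the STAT site TTCNNNGAA, the IRF-bound pair of GAAA and GAAA with 2 bases between, the SP1-type GC box GGGCGG and the TATA box TATAAA. FASLG lies at chr1:172658853-172659152 on the plus strand, FAS (the first of its 3 listed start sites) at chr10:88990548-88990847 on the plus strand, and TNFSF10 at chr3:172523381-172523680 on the minus strand.
FASLG: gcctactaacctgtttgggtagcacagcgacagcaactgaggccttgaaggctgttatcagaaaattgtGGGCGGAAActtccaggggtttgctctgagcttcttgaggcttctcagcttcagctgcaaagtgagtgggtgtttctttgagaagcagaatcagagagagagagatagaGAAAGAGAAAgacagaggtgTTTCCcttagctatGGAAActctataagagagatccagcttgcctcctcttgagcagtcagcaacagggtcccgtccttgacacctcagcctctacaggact
FAS: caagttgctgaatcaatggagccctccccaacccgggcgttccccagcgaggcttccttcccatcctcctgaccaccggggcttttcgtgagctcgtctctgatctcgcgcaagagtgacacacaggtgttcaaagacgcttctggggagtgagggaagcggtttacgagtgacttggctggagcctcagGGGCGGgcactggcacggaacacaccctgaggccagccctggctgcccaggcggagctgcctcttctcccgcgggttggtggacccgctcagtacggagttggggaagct
TNFSF10: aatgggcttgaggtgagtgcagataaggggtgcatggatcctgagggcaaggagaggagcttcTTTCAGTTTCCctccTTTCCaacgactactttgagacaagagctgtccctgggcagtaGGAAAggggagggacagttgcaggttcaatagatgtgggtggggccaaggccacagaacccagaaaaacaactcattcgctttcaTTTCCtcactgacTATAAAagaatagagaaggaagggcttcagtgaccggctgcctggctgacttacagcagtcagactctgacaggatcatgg
The FASLG window held 3 NFAT cores, at −177, −52 and −38 from the start site, 1 IRF pair at −72 and 1 GC box, which overlapped the first NFAT core. The TNFSF10 window held 4 NFAT cores, 1 IRF pair at −187 that overlapped an NFAT core, and a TATA box at −31. The first FAS window held a GC box alone and had a GC content of 63.0%, against 49.3% for FASLG and 51.0% for TNFSF10. Of the other FAS start sites, the second held an NFAT core at 14 and 2 GC boxes, and the third a GC box alone. Of 35116 promoters of the same length, 61.2% held an NFAT core, 7.66% a STAT site, 3.57% an IRF pair, 45.0% a GC box and 11.5% a TATA box. These are matches of letters only, and no binding was measured here.

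In KO NK cells the levels of both ligand genes had higher means than in WT NK cells, and neither passed the test, while the 2 receptor genes had overlapping groups. A gene was called at the thresholds of the study, an adjusted p under 0.01 and an absolute log2 fold change over 0.5. The study applied them with DESeq2, whereas the adjusted p here came from edgeR's quasi-likelihood test. None of the 4 mouse members was called, and none of the 13189 genes tested was (0%), although 4719 genes (35.8%) had an unadjusted p under 0.05 and DESeq2 called 1499. At a looser adjusted p under 0.05, 9.51% of genes were called (2.82% higher and 6.69% lower) and again 0 of 4 members.

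Fasl, which encodes Fas ligand, is located at chr1:161780689-161788495 of GRCm38, minus strand. Its normalized level was 83.1, 94.6 and 83.6 CPM in KO replicates 1 to 3 and 45.1, 73.5 and 50.2 CPM in WT replicates 1 to 3. Every KO library was above every WT library, and WT replicate 2 stood nearer to the KO libraries than to the other WT libraries. Groups that do not overlap in this direction were found for 19.1% of genes tested, against 19.3% in the opposite direction, and the two-sided exact permutation test gave p = 0.1, the smallest that 3 against 3 allow. The log2 fold change was 0.63 (SE 0.18, adjusted p = 0.0560 by edgeR). Without WT replicate 2 it was 0.87 with an adjusted p of 0.00273, and Fasl was called. DESeq2 called it as well (0.62, adjusted p = 0.00673), and over all 16 alternatives its adjusted p lay between 0.00273 and 0.661.

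Tnfsf10, the gene of TRAIL, is located at chr3:27317028-27342427 of GRCm38, plus strand. Its levels were 15.2, 20.9 and 19.6 CPM in the KO libraries and 15.6, 11.01 and 12.2 CPM in the WT libraries. KO replicates 2 and 3 were above all WT libraries, whereas KO replicate 1 lay below WT replicate 1. Its log2 fold change was 0.52 (SE 0.18, adjusted p = 0.0838 by edgeR; exact permutation p = 0.2), and the adjusted p of the alternatives ranged from 0.0483 (DESeq2) to 0.316.

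Fas, the receptor of Fas ligand, is located at chr19:34290666-34327772 of GRCm38, plus strand. The libraries held 6.72, 4.98 and 4.36 CPM in the KO libraries and 6.74, 4.54 and 7.74 CPM in the WT libraries. The groups overlapped, with KO replicate 1 level with WT replicate 1. Its log2 fold change was −0.25 (95% interval −0.83 to 0.34, adjusted p = 0.507 by edgeR).

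Tnfrsf10b, the TRAIL death receptor of the mouse, is located at chr14:69767472-69784411 of GRCm38, plus strand. It was the lowest of the 4 members, at 1.14, 1.70 and 1.21 CPM in the KO libraries and 1.83, 1.09 and 0.994 CPM in the WT libraries. These levels rest on 28 to 68 reads, for which counting alone gives an error of 12.1 to 18.9%. The log2 fold change was 0.04 (95% interval −0.76 to 0.85, adjusted p = 0.940 by edgeR), and its sign turned when KO replicate 2, WT replicate 2 or WT replicate 3 was left out.

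**Figure D1:**
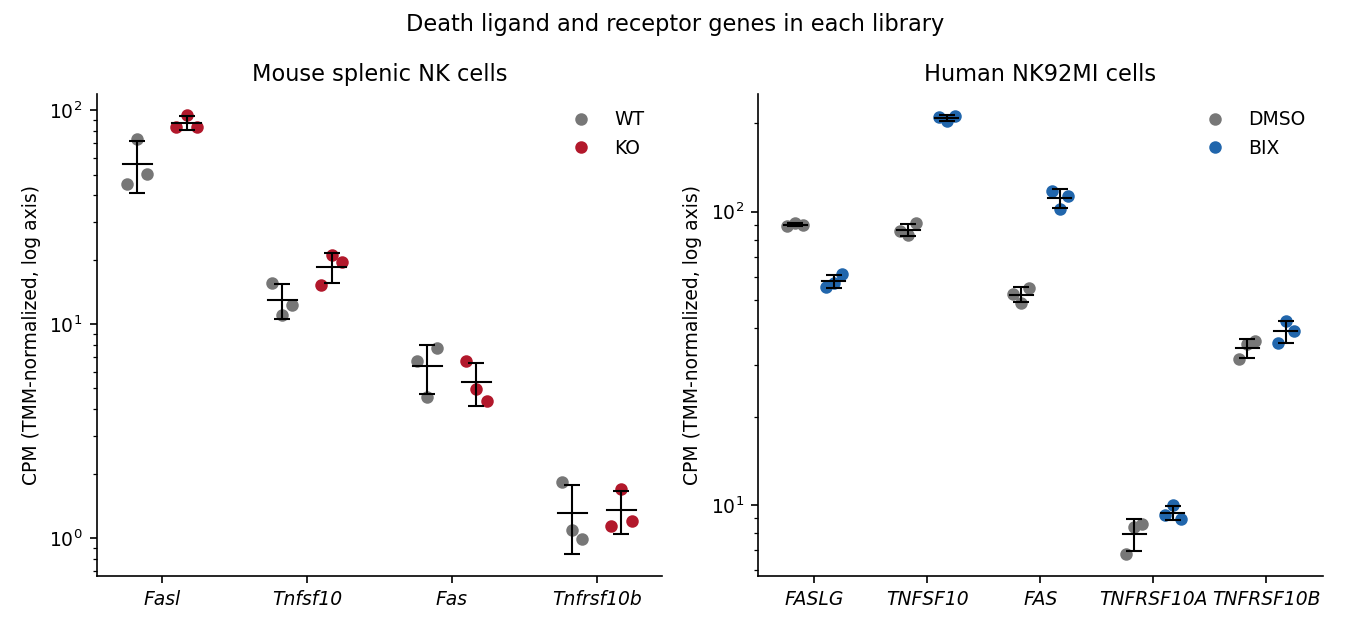
Levels of the 9 members as TMM-normalized CPM on a log axis, with 1 point per library, the mean as a line and the SD as a bar (n = 3). Mouse KO and WT libraries overlapped for every member but Fasl, and in human cells the BIX libraries stood apart from DMSO for FASLG, TNFSF10 and FAS and, narrowly, for TNFRSF10A. Over all genes tested, groups stood apart upward for 19.1% and downward for 19.3% in mouse, and for 24.1% and 23.9% in human.

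The proportion of Fasl to the pan-NK list varied less between the mouse libraries than the level of Fasl did. Per 1000 counts of the 12 pan-NK genes, Fasl had 9.99, 9.06 and 8.05 counts in KO and 9.87, 9.32 and 10.6 counts in WT NK cells. The groups overlapped on this scale (9.03 ± 0.97 against 9.92 ± 0.63, SD, n = 3; exact permutation p = 0.3). WT replicate 2, the WT library with the highest Fasl level, also had the highest pan-NK sum of its group (7887 CPM) and the lowest macrophage and monocyte sum (2578 CPM against 4970 and 6649 CPM). Tnfsf10 had 1.83, 2.01 and 1.89 counts per 1000 pan-NK counts in KO and 3.43, 1.40 and 2.57 in WT NK cells, again with overlap. Fas had 0.808, 0.477 and 0.420 in KO and 1.48, 0.575 and 1.63 in WT NK cells, and Tnfrsf10b had means of 0.139 and 0.249. With libraries scaled to the pan-NK list, the log2 fold changes were −0.13 for Fasl, −0.37 for Tnfsf10, −1.11 for Fas and −0.84 for Tnfrsf10b, at a median over all genes of −0.82. Relative to that median, Fasl stood at 0.68 and Tnfsf10 at 0.45. The list holds Prf1, Il2rb and Tbx21, whose mRNA the study found raised in KO NK cells by RT-qPCR. On this scale a change of the list genes themselves cannot be told apart from a change of a member. The part of the marker lists in these differences was not tested, and in sorted bulk samples fewer cells of a type and less RNA per cell cannot be told apart.

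**Figure D2:**
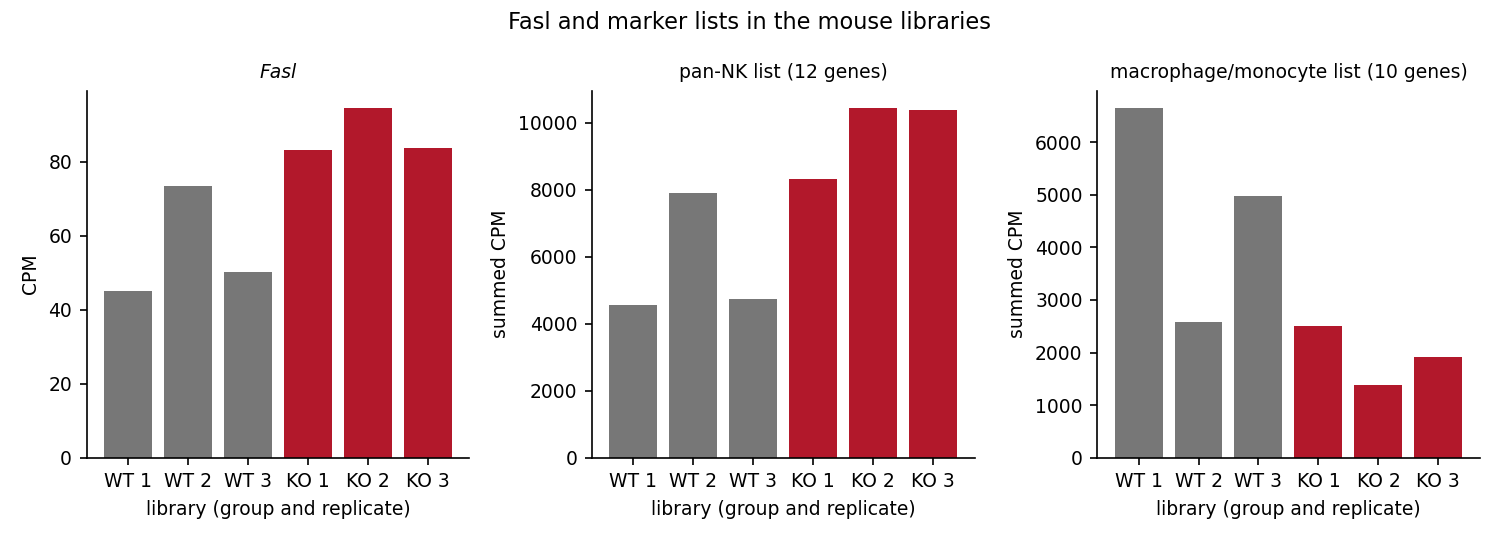
Fasl (CPM) and the summed CPM of the pan-NK and the macrophage and monocyte lists in each mouse library, 1 bar per library (grey WT, red KO). WT replicate 2 had the highest Fasl level and pan-NK sum among WT libraries and the lowest macrophage and monocyte sum (2578 CPM).

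In NK92MI cells treated with BIX, FASLG fell while TNFSF10 and FAS rose, and the TRAIL receptor genes did not pass the test. Of the 5 human members 3 were called, 2 higher and 1 lower, where 11.7% of the 12727 genes tested were called (6.24% higher and 5.43% lower). EHMT2 itself had a log2 fold change of −0.58 (SE 0.08, adjusted p = 0.000101 by edgeR).

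FASLG is located at chr1:172659103-172666876 of GRCh38, plus strand. Its levels were 55.3, 57.3 and 61.2 CPM with BIX and 89.3, 91.3 and 89.9 CPM with DMSO. Every BIX library was below every DMSO library, a separation that 23.9% of genes showed in this direction. The log2 fold change was −0.64 (SE 0.07, adjusted p = 1.03e-05 by edgeR), which is 1.56-fold lower.

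TNFSF10, at chr3:172505508-172523475 of GRCh38 on the minus strand, was counted at 210.7, 203.1 and 211.2 CPM with BIX and at 86.2, 83.0 and 91.1 CPM with DMSO. The libraries of each group lay close together and the groups far apart. The log2 fold change was 1.26 (SE 0.06, adjusted p = 1.62e-08 by edgeR), a 2.40-fold rise and the 11th smallest adjusted p of all genes tested.

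FAS is located at chr10:88953813-89029605 of GRCh38, plus strand. Its levels were 117.9, 102.3 and 113.5 CPM with BIX and 52.4, 48.8 and 54.9 CPM with DMSO. All BIX libraries were above all DMSO libraries, as for 24.1% of genes in this direction. The log2 fold change was 1.10 (SE 0.08, adjusted p = 2.70e-07 by edgeR), a 2.14-fold rise. The annotated span of FAS overlaps STAMBPL1 on the same strand and ACTA2 on the opposite strand. Since the strand setting of the counting was not given, reads of FAS and ACTA2 cannot be told apart where they overlap. STAMBPL1 had mean levels of 31.7 CPM with BIX and 33.6 CPM with DMSO, and ACTA2 of 0.771 and 0.936 CPM.

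TNFRSF10A and TNFRSF10B encode the death receptors DR4 and DR5 of TRAIL and lie near each other at chr8:23190452-23225102 and chr8:23020133-23069031 of GRCh38, both on the minus strand. TNFRSF10A was counted at 9.25, 9.99 and 8.97 CPM with BIX and at 6.81, 8.42 and 8.58 CPM with DMSO. The groups did not overlap, as for 24.1% of genes in this direction, and the lowest BIX library was only slightly above the highest DMSO library. The log2 fold change was 0.25 (95% interval −0.05 to 0.54, adjusted p = 0.186 by edgeR). TNFRSF10B was counted at 35.7, 42.3 and 39.1 CPM with BIX and at 31.3, 35.5 and 36.1 CPM with DMSO. Here BIX replicate 1 lay below the highest DMSO library, and the log2 fold change was 0.19 (95% interval −0.01 to 0.38, adjusted p = 0.129 by edgeR). Both genes overlap annotated genes of the opposite strand, among them TNFRSF10A-AS1 and RHOBTB2, whose reads cannot be told apart from theirs without the strand setting.

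**Figure D3:**
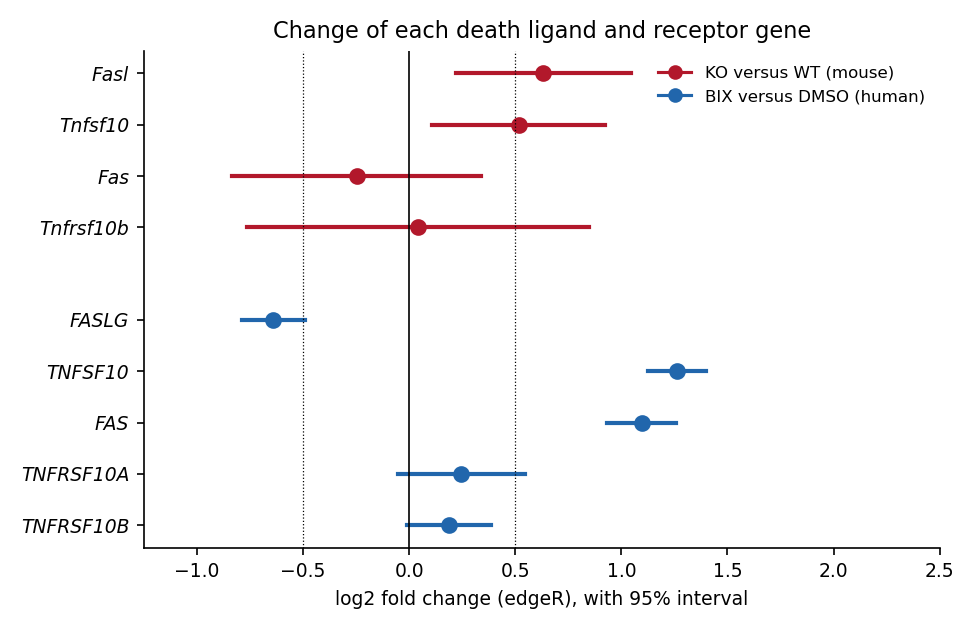
Log2 fold changes of the 9 members by edgeR, with 95% intervals as bars, for KO versus WT (red) and BIX versus DMSO (blue). Dotted lines mark the fold change threshold of 0.5 in either direction. FASLG lies at −0.64, TNFSF10 at 1.26 and FAS at 1.10, and the mouse intervals are wider than the human ones.

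To compare genes with each other, levels were divided by the length of 1 transcript per gene. In DMSO libraries FASLG was at 49.96 ± 0.55 and TNFSF10 at 46.3 ± 2.18 CPM per kilobase (SD, n = 3), followed by FAS (14.1 ± 0.83), TNFRSF10B (8.58 ± 0.65) and TNFRSF10A (2.95 ± 0.36). In BIX libraries TNFSF10 was highest at 111 ± 2.42 CPM per kilobase. FASLG (32.1 ± 1.66) and FAS (30.1 ± 2.17) came next with overlapping libraries, then TNFRSF10B (9.76 ± 0.82) and TNFRSF10A (3.50 ± 0.20). In mouse, Fasl led in both groups, at 45.0 ± 3.34 CPM per kilobase in KO and 29.0 ± 7.82 in WT NK cells. Tnfsf10 (3.72 ± 0.603 and 2.596 ± 0.481) and Fas (3.61 ± 0.82 and 4.28 ± 1.11) overlapped in each group, and Tnfrsf10b was lowest (0.42 ± 0.10 and 0.41 ± 0.15). The order of the human genes depended on the length used. With the union of all annotated exons, the length first tried, FAS was at 1.78 CPM per kilobase with DMSO and 3.79 with BIX, since that union spans 29313 bases against 3696 bases for the transcript, and TNFSF10 was at 25.2 and 60.5.

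Ratios within a library change between groups in the same way whichever length is used. The ratio of FASLG to FAS per kilobase was 0.960, 1.15 and 1.10 with BIX and 3.49, 3.83 and 3.35 with DMSO, 3.33-fold lower with BIX. The ratio of FASLG to TNFSF10 was 0.273, 0.293 and 0.301 with BIX and 1.08, 1.14 and 1.03 with DMSO. For TRAIL and DR5, TNFSF10 to TNFRSF10B, it was 12.6, 10.2 and 11.5 with BIX and 5.87, 4.99 and 5.38 with DMSO. These 3 ratios separated the groups (exact permutation p = 0.1 each, the smallest possible, unadjusted over the 7 ratios computed), and that of TNFRSF10B to TNFRSF10A did not. In mouse, Fasl to Fas was 9.46, 14.5 and 14.7 in KO and 5.11, 12.4 and 4.96 in WT NK cells. The groups overlapped, with WT replicate 2 above KO replicate 1 (exact permutation p = 0.2). Tnfsf10 to Tnfrsf10b was 8.46, 7.85 and 10.3 in KO and 5.43, 6.46 and 7.83 in WT NK cells. Its groups separated too (exact permutation p = 0.1), with the highest WT library (7.83) just below the lowest KO library (7.85). That gap is within counting error, since Tnfrsf10b rests on 28 to 68 reads per library, an error of 12.1 to 18.9%. Fasl to Tnfsf10 overlapped.

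The other genes of the pathway were grouped by role. Among other death ligands and receptors of the TNF family, 3 of 8 tested human genes were called higher with BIX and none lower. Over all human genes tested, 6.24% were called higher and 5.43% lower. Of the 8 genes, 5 had a positive log2 fold change. TNFRSF1A had −0.37 (adjusted p = 0.00123 by edgeR), a fall below the fold change threshold. TNFSF14, which encodes LIGHT, had a log2 fold change of 0.55 (adjusted p = 1.34e-05 by edgeR), and LTA and LTB, the genes of lymphotoxin alpha and beta, had 0.56 each. In mouse, 1 of 10 tested genes was called higher and 1 lower in KO at the looser threshold. Of all mouse genes, 2.82% were called higher there and 6.69% lower. They were Tnfsf14 (0.67, adjusted p = 0.0319) and Tnfrsf21, the gene of DR6 (−1.57, adjusted p = 0.0350 by edgeR). The list medians were 0.22 in mouse and 0.09 in human, against 0.01 and −0.01 over all genes tested.

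Decoy receptors bind the ligands without passing on a death signal. None of the 3 tested genes on the mouse list of decoys was called. Tnfrsf23 had a log2 fold change of −0.74 (SE 0.22, adjusted p = 0.0607 by edgeR), and Tnfrsf22 of 0.26 (SE 0.23, adjusted p = 0.444 by edgeR). The list also held Tnfrsf26 (0.06, adjusted p = 0.862 by edgeR), for which binding of either ligand was not tested here. TNFRSF10C was counted 0 to 5 times per human library, at about the limit set by 3 counts. The other human decoy genes, TNFRSF6B, TNFRSF10D and TNFRSF11B, were not among the listed human genes under these symbols and could not be analysed.

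Of the receptor complex and the caspases, 1 of 17 human genes was called with BIX, no larger a share than the 11.7% of all human genes tested. This was CFLAR, which encodes the caspase-8 inhibitor FLIP, with a log2 fold change of 0.53 (SE 0.07, adjusted p = 4.08e-05 by edgeR). CASP8 stood at 0.25 (adjusted p = 0.00617), below the fold change threshold, and the adaptor FADD at −0.03. In KO NK cells Casp8 stood at 0.20 and Cflar at 0.12, and neither was called.

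The next list was drawn up as brakes on death receptor signalling, but it also held RIPK3 and MLKL, genes of necroptosis. Not all of its genes are restraints, and its counts and medians are those of the list as drawn up. Of its 12 tested human genes, 6 were called higher with BIX and none lower. Of all genes tested, 6.24% were called higher and 5.43% lower. The list median was 0.49 against −0.01 over all genes. TNFAIP3, the gene of the ubiquitin-editing enzyme A20, rose 3.01-fold from 41.1 to 123 CPM (log2 fold change 1.59, SE 0.07, adjusted p = 3.37e-09 by edgeR). BIRC3, which encodes the ubiquitin ligase cIAP2, rose by 1.39 on the log2 scale, and MCL1, an anti-apoptotic BCL2 relative, by 0.91. CYLD, the gene of a deubiquitinase, had a log2 fold change of 0.57. In mouse none of 13 was called, and Fcmr had the most negative log2 fold change (−2.51, adjusted p = 0.138 by edgeR) beside the lower B cell list.

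Fas ligand is stored, moved to the surface and cut from it by proteins of its own set. With BIX, 1 of 13 tested genes of this set was called higher and 3 lower. Of all genes tested, 6.24% were called higher and 5.43% lower. PSTPIP1, an adaptor that binds Fas ligand, fell by 1.13 on the log2 scale (adjusted p = 3.31e-07 by edgeR), FYN, a kinase that binds it, by 0.66, and UNC13D, needed for granule release, by 0.60. The protease gene SPPL2A rose by 0.63, while the sheddase gene ADAM10 stood at 0.23, below the threshold. In KO NK cells 1 of 14 was called at the looser threshold, no larger a share than the 9.51% of all mouse genes called there. This was the sorting nexin gene Snx9 (−1.20, adjusted p = 0.0323 by edgeR).

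Of the transcription factors known to act on these genes, 3 of 16 were called higher with BIX and none lower. Over all genes tested, 6.24% were called higher and 5.43% lower. Of the 16 genes, 10 had a positive log2 fold change. Below the fold change threshold, TBX21 fell by 0.46 on the log2 scale (adjusted p = 7.61e-05 by edgeR) and EOMES by 0.17 (adjusted p = 0.0441 by edgeR). JUN, part of AP-1, had a log2 fold change of 1.76 (adjusted p = 3.37e-09 by edgeR), and DDIT3, a factor of the stress response, 1.49. EGR2 (0.62, adjusted p = 0.0250 by edgeR) passed at the looser threshold, at which 14.9% of all genes were called (7.57% higher and 7.34% lower). In KO NK cells 2 of 18 were called at that threshold, near the 9.51% of all mouse genes. They were Irf1 (0.53, adjusted p = 0.0324) and Tbx21, the gene of T-bet (0.90, adjusted p = 0.0368 by edgeR). Tbx21 is also on the pan-NK list. Without WT replicate 2 the mouse counts called at the looser threshold went from 2 to 4 for this set and from 1 to 2 for the transport set. They went from 0 to 1 for the list drawn up as brakes and from 2 to 3 for the other ligands and receptors.

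**Figure D4:**
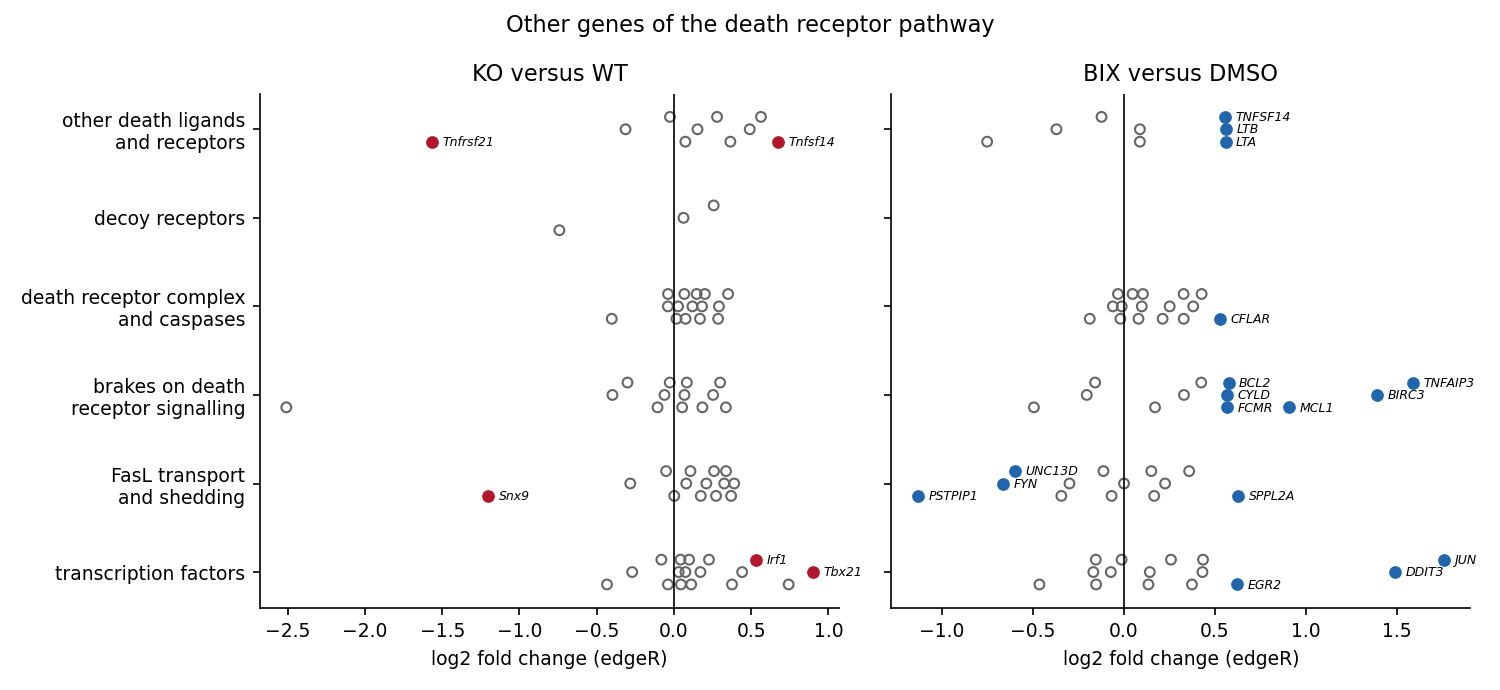
Log2 fold changes by edgeR of the other pathway genes in 6 lists, 1 point per gene shown, for KO versus WT (left) and BIX versus DMSO (right). Filled, named points passed an adjusted p under 0.05 and an absolute log2 fold change over 0.5. On the right of the BIX panel lie 6 genes of the list drawn up as brakes, TNFAIP3 at 1.59 foremost.

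For each member the 3 genes with the most similar profile were sought, by the root mean square difference of centred log2 CPM over the 6 libraries of its species. FASLG was nearest to PLEKHG4 (0.03), FYN (0.04) and CHST12 (0.04). FAS was nearest to PMAIP1, TSPAN33 and ZFP36L1 (0.06 each), and TNFSF10 to OPTN, CADM1 and DUSP10 (0.06 to 0.07). TNFRSF10A was nearest to DNAL1, NIPSNAP3A and SPATA2, and TNFRSF10B to VAMP3, MBOAT7 and KIAA0232. In mouse, Fasl was nearest to Klhl30 (0.03), Wdr95 (0.05) and Agpat2 (0.05), and Fas to Batf3, Cebpb and Krt7. Tnfsf10 was nearest to Gm614, Pcyox1l and Klhdc8b, and Tnfrsf10b to Ripply3, Erbb3 and Gdpd5, all at 0.11 to 0.14. The points share 6 libraries in 2 groups, so any gene that changes by a like amount comes out near.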

How the data were processed

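RNA-seq counts of 3 WT and 3 KO mouse NK cell libraries and of 3 BIX and 3 DMSO NK92MI libraries were analysed. The authors prepared polyA RNA libraries, trimmed reads with fastp 0.23.4, aligned them with STAR 2.7.11b (2 mismatches) to GRCm38 or GRCh38 and counted them with HTSeq 2.0.3. The deposited values are unnormalized counts for each gene symbol, as made by the authors. The annotation release and the strand setting are not given in the sources used here. Groups follow the sample titles, and the DMSO columns carry no link to numbered samples.

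Each species was fitted separately in R 4.3.3 with edgeR 4.0.16 (filterByExpr, TMM, quasi-likelihood test, Benjamini-Hochberg adjustment over all genes tested). Genes were called at an adjusted p under 0.01 and an absolute log2 fold change over 0.5, the study's thresholds, or at the looser 0.05. CPM used TMM sizes, with a prior count of 2 for log2 values. The biological coefficient of variation was 18.2% in mouse and 7.55% in human. No 2 libraries of a group were identical, and each pair differed by more than sampling noise (chi-square per gene of at least 3.06). The fits were checked on simulated data. Alternatives were other scalings and filters, DESeq2 1.42.0, limma-voom 3.58.1, the replicate number as a block, scaling to the pan-NK list and each library left out in turn. Robust dispersion estimates, counts per 1000 pan-NK counts and the list counts without WT replicate 2 were chosen after seeing the data.

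Gene positions came from GENCODE annotations of the same builds, which are not shown to be the authors' release. Levels per kilobase used the MANE Select transcript in human and the longest APPRIS principal transcript in mouse. This length replaced the union of exons after the values had been seen. Promoters came from RefSeq, which matched 3 of 5 human members. Named were all members, up to 4 called genes per list by adjusted p, up to 3 uncalled ones that give a role, and the 3 nearest profiles per member. Members and lists were chosen with earlier results of these data known. Counting errors cover the sampling of reads only. Results of some list genes are not reported here.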

Additional observations from a re-analysis of the deposited data

Results flagged for a closer look

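The libraries of the gene of Fas ligand separated in opposite directions in the mouse and the human comparison on the CPM scale, although Fasl was not called in mouse. Fasl had a log2 fold change of 0.63 in KO versus WT NK cells, with every KO library above every WT library and an adjusted p of 0.0560 by edgeR, and FASLG had −0.64 in BIX versus DMSO, with every BIX library below every DMSO library. Groups stood apart upward for 19.1% of mouse genes tested and downward for 23.9% of human genes tested. Each mouse member was screened with its human counterpart by the same rule. The 2 comparisons differ in species, in cell source and in a deletion against an inhibitor, and the difference between them was not tested. Per 1000 pan-NK counts the mouse groups overlapped and the KO mean was below the WT mean (9.03 against 9.92). With libraries scaled to the pan-NK list the log2 fold change of Fasl was −0.13 (SE 0.28, adjusted p = 0.661 by edgeR), so its sign was not settled. On that scale the median gene was at −0.82, and Fasl stood 0.68 above it.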

How the results depend on the processing

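All 5 human members kept their direction and their side of the threshold under each of 14 alternatives, and 3 were called in each. With 1 library left out, FASLG lay between −0.68 and −0.60, FAS between 1.05 and 1.16, and TNFSF10 between 1.23 and 1.30. In mouse, the number of members called was 0 in the reported test, 1 with DESeq2 and 0 to 1 with 1 library left out. Fasl was called by DESeq2 (0.62, adjusted p = 0.00673), and with 1 library left out it lay between 0.50 and 0.87, called only without WT replicate 2. Scaling to the pan-NK list moved the median gene to −0.82 and turned Fasl to −0.13, Tnfsf10 to −0.37 and Tnfrsf10b to −0.84. The sign of Tnfrsf10b also turned when 1 library was left out (−0.15 to 0.38), at 28 to 68 reads per library. Over all mouse genes, 0 were called by edgeR, 1499 by DESeq2, 3 by limma-voom, 34 without the filter, 4 with robust dispersion estimates, 2986 with pan-NK scaling and 1163 without WT replicate 2. The cause was not tested.

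With the replicate number as a replicate block, 819 mouse genes and 0 of 4 members were called, and Fasl stood at 0.66 (adjusted p = 0.0111 by edgeR), Tnfsf10 at 0.52, Fas at −0.24 and Tnfrsf10b at 0.07. Deviations of same-numbered libraries correlated at 0.28, 0.35 and −0.19, and only replicate 2 matched its own number best. No label says what same-numbered libraries share, and so few correlations cannot decide whether they were paired. No paired analysis was possible in NK92MI because the DMSO columns carry no replicate numbers.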
